A study of Mus musculus with 12 samples.

Results

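Aminoacyl-tRNA synthetases are the enzymes that join each amino acid to its tRNA, the step that supplies the ribosome with its building blocks. The members described here were 39 genes chosen by symbol: 21 synthetases named for the cytosol, 16 named for mitochondria, and the complex scaffold genes Aimp1 and Aimp2. All 39 were found among the 22034 symbols of the footprint table and among the 49997 symbols of the RNA table, with Hars and Wars listed as Hars1 and Wars1 in the footprint table. All 39 passed the filter on low counts in every fit.

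The cells were the mouse embryonic stem cell line ES-E14TG2a, grown with LIF and 2 kinase inhibitors. In every group the release factor eRF1 carried a dTAG degron, through which the compound dTAG-13 directs the tagged protein to degradation. Ribosome footprints, the fragments of mRNA that a ribosome shields from nuclease, were counted in 4 groups: Gcn2 knockout cells with eRF1-dTAG treated for 1 h with 500 nM dTAG-13, the same knockout cells untreated, Gcn2 wild-type cells with eRF1-dTAG treated for 1 h with 500 nM dTAG-13, and these wild-type cells untreated. Poly(A) RNA was sequenced from treated and untreated wild-type cells only. Each group had 2 biological replicates, A and B, which gave 12 libraries. Neither vehicle-treated cells nor treated cells with untagged eRF1 are named in the labels, so an effect of the compound and an effect of eRF1 loss cannot be told apart. The sources used here do not give whether the knockout is 1 clone or differs from the wild-type line in other ways.

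Each amino acid has a cytosolic synthetase, and most have a separate mitochondrial enzyme that is made in the cytosol from a nuclear gene and imported. In mammals, several of the cytosolic enzymes sit together in a multi-synthetase complex held by the scaffolds Aimp1, Aimp2 and Eef1e1, while the others act outside it. Gcn2, the kinase encoded by Eif2ak4, carries a domain related to histidyl-tRNA synthetase, binds uncharged tRNA and phosphorylates the initiation factor eIF2. This allows translation of the transcription factor ATF4, which is reported in mammalian cells to raise transcription of a set of cytosolic synthetase genes. eRF1, encoded by Etf1, recognises stop codons and ends translation.

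Footprint libraries held 7874804 to 19691716 counts and RNA libraries 17462458 to 24256097. Levels are CPM, a gene's counts scaled by TMM library sizes to a common total. They are shares of a library, and a shift of translation shared by every mRNA would not appear in them. Summed footprints of 7 pluripotency markers ranged from 5305 to 5840 CPM over the libraries, against 2.49 to 5.26 CPM for 4 primitive endoderm markers, 12.1 to 22.7 CPM for 4 primed or differentiating markers and 4.31 to 9.29 CPM for 4 fibroblast markers. Eif2ak4 had 3.10 and 5.36 CPM in treated knockout cells and 2.46 and 2.33 CPM in untreated knockout cells, against 34.0 and 33.2 CPM in treated wild-type cells and 27.7 and 29.4 CPM in untreated wild-type cells (replicates A and B). Both knockout groups were thus below both wild-type groups, as their labels state. A gene was called where its two-sided adjusted p from edgeR's quasi-likelihood test, with Benjamini-Hochberg adjustment over all genes tested, was under 0.05.

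In wild-type cells, 5 cytosolic synthetase genes gained footprints after dTAG-13, and no mitochondrial one was called in either direction. Of the 21 cytosolic genes, 5 rose and 0 fell, against 4.88% of the 12267 genes tested called either way, 2.94% higher and 1.94% lower. The genes that rose were Lars, Tars, Aars, Eprs and Rars. The log2 footprint change was above 0 for 19 of the 21, with a median of 0.28 beside −0.01 over all genes tested. Of the 16 mitochondrial genes, 0 were called, which is near the 4.88% of all genes and by itself says little about so short a list. Of these 16, 8 were above 0 and 8 below, and the median was 0.01. Genes were called with the spread shared over all 8 footprint libraries: with the 4 wild-type libraries fitted alone, 0 of the 39 members and 19 of 11937 genes were called, with a cytosolic median of 0.28.

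Among enzymes outside the complex, Tars encodes cytosolic threonyl-tRNA synthetase and lies on chromosome 15 from 11383663 to 11399658 (all gene positions are RefSeq's on GRCm38.p6, the assembly behind mm10). Tars had 102 and 92.2 CPM in treated wild-type cells (A and B) and 61.0 and 57.8 CPM in untreated ones. Both treated libraries lay well above both untreated ones, and replicates were close. Tars rose 1.63-fold (log2 change 0.71, SE 0.115, adjusted p = 0.00517). Leaving out any 1 of the 8 footprint libraries kept this call, with log2 changes of 0.63 to 0.78.

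Aars, the cytosolic alanyl-tRNA synthetase gene on chromosome 8 (111027778 to 111055569), had 1474 and 1163 CPM in treated wild-type cells, against 899 and 837 CPM in untreated ones. The groups did not overlap, with treated replicate A the higher of its pair. Aars rose 1.52-fold (log2 change 0.60, SE 0.131, adjusted p = 0.0197). The call was lost in 5 of the 8 fits that left out a library, namely without either treated knockout library, without treated wild-type replicate A, and without either untreated wild-type library, where the log2 change stayed between 0.42 and 0.77 over all 8 fits.

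Of the 13 cytosolic genes outside the complex, these 2 were called, 11 had log2 changes above 0 and the median was 0.23. Nars, asparaginyl-tRNA synthetase, had 560.0 and 452 CPM in treated wild-type cells and 425 and 356 CPM in untreated ones (log2 change 0.37, SE 0.132, adjusted p = 0.135). Cars, cysteinyl-tRNA synthetase, had 226 and 207 CPM in treated and 184 and 155 CPM in untreated wild-type cells (0.35, SE 0.118, adjusted p = 0.113). Vars, valyl-tRNA synthetase, had 265 and 260.3 CPM in treated and 207 and 225 CPM in untreated wild-type cells (0.28, SE 0.115, adjusted p = 0.199). For each of these 3 genes both treated libraries were above both untreated ones, without a call. The 2 subunits of phenylalanyl-tRNA synthetase had log2 changes of −0.07 (Farsa) and 0.23 (Farsb), and their groups overlapped. Wars, tryptophanyl-tRNA synthetase, and Sars, seryl-tRNA synthetase, had the largest SEs, 0.350 and 0.304, with changes of 0.34 and 0.10. Gars (glycyl, 0.01), Tarsl2 (a threonyl-tRNA synthetase paralogue, 0.05), Yars (0.06) and Hars (histidyl, −0.09) were among those nearest to 0.

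Within the multi-synthetase complex, all 8 enzyme genes had log2 footprint changes above 0 in wild-type cells, with a median of 0.39, and 3 of them rose. Lars, cytosolic leucyl-tRNA synthetase, lies on chromosome 18 from 42202298 to 42262237. Lars had 458 and 281 CPM in treated wild-type cells and 192 and 158 CPM in untreated ones. The groups did not overlap, but treated replicate A stood far above treated replicate B. Lars rose 2.11-fold (log2 change 1.08, SE 0.202, adjusted p = 0.0127). The log2 change of Lars was 0.69 without treated replicate A, still called, and the call held in all 8 fits that left out a library.

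Eprs encodes the fused enzyme that charges both glutamate and proline tRNAs (chromosome 1, 185361417 to 185428360). Eprs had 761 and 655 CPM in treated wild-type cells, against 533 and 421 CPM in untreated ones. It rose by a log2 change of 0.57 (SE 0.136, adjusted p = 0.0307), and its groups did not overlap. Rars, cytosolic arginyl-tRNA synthetase (chromosome 11, 35808381 to 35834528), had 305 and 337 CPM in treated wild-type cells and 217 and 244 CPM in untreated ones. It rose by 0.48 (SE 0.113, adjusted p = 0.0292), again without overlap. Both calls were lost in most of the 8 fits that left out a library. That of Eprs held in 2 (without treated wild-type replicate B and without untreated wild-type replicate A). That of Rars held in 3 (without either untreated knockout library and without untreated wild-type replicate B). Some losses came without a knockout library, which enters this comparison only through the shared spread and scaling. Over the 8 fits the log2 changes were 0.41 to 0.75 for Eprs and 0.395 to 0.565 for Rars.

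The remaining complex enzymes were not called in wild-type cells. Qars, glutaminyl-tRNA synthetase, had 387 and 392 CPM in treated and 255 and 326 CPM in untreated wild-type cells (log2 change 0.42, adjusted p = 0.0758), without overlap. The changes of the others were, for Iars, isoleucyl, 0.36 (adjusted p = 0.172), Mars1, methionyl, 0.23, Dars, aspartyl, 0.22, and Kars, lysyl, 0.18. Kars and Gars, unlike most, also supply the mitochondrial form of their enzyme. None of the 3 scaffold genes was called either. Aimp1 had 170.1 and 166 CPM in treated wild-type cells and 173 and 159.8 CPM in untreated ones (log2 change 0.01, SE 0.108), and Aimp2 had 108 and 110.1 CPM in treated against 114 and 107 CPM in untreated cells (−0.02, SE 0.109). The third scaffold, Eef1e1, which is outside the 39 members, had 141 and 144 CPM in treated and 184 and 174 CPM in untreated wild-type cells (−0.33, SE 0.109, adjusted p = 0.106).

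**Figure D1:**
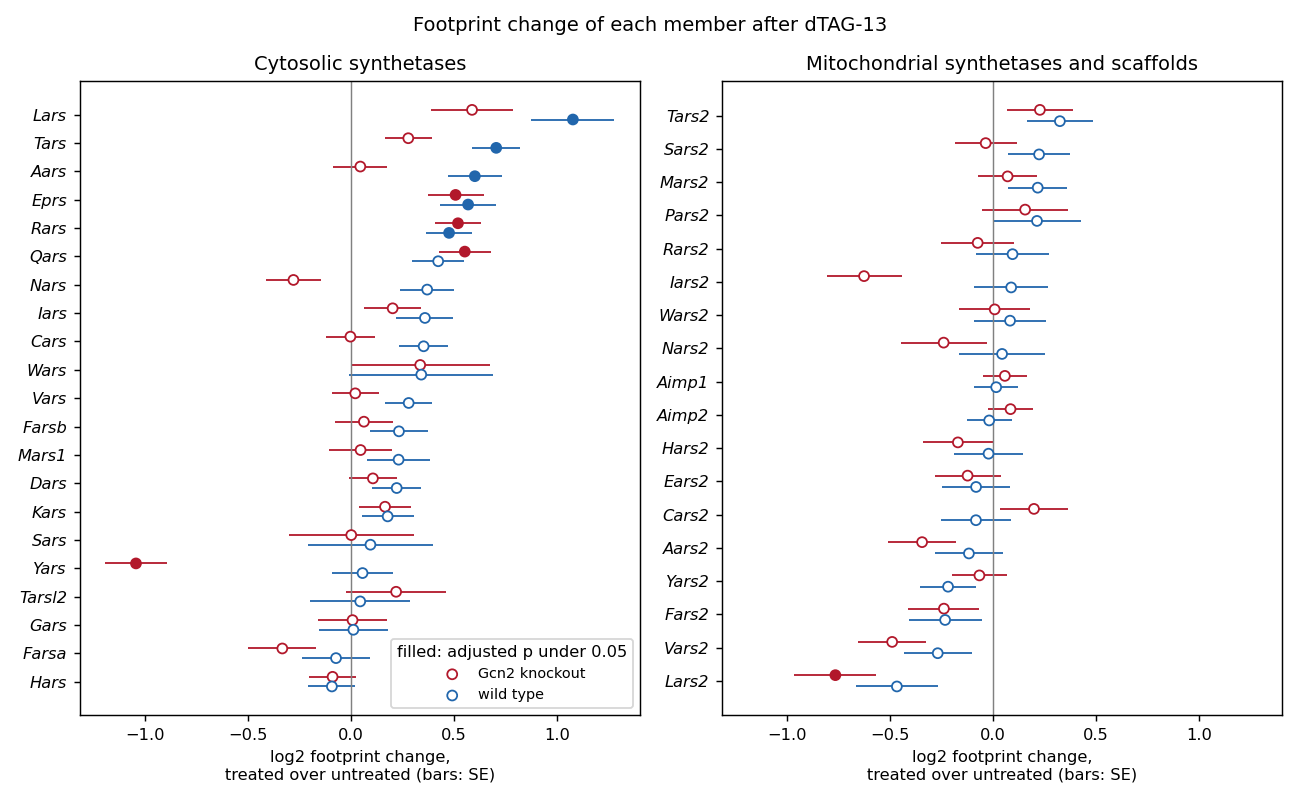
Log2 footprint change, treated over untreated, for each of the 39 members, with cytosolic synthetases on the left and mitochondrial synthetases and scaffolds on the right. Points are edgeR estimates in Gcn2 knockout (red) and wild-type (blue) cells, and filled points are called. Bars are SEs from 1 fit of all 8 footprint libraries, 2 per group, with a shared spread. In wild-type cells, 19 of 21 cytosolic genes lie above 0, against 8 of 16 mitochondrial genes, and Yars in the knockout stands lowest at −1.04.

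Over all members, 11 of the 21 cytosolic genes had both treated wild-type libraries above both untreated ones, and 0 had both below. Of all genes tested, 22.3% had both above and 22.8% both below. Among the 16 mitochondrial genes, 3 had both treated libraries above (Tars2, Sars2 and Mars2) and 5 both below (Lars2, Vars2, Yars2, Aars2 and Cars2). Their log2 changes ranged from −0.47 (Lars2, adjusted p = 0.224) to 0.32 (Tars2, adjusted p = 0.303). SEs were larger for mitochondrial genes (median 0.169) than for cytosolic ones (median 0.136), and 7 of the cytosolic against 8 of the mitochondrial changes were smaller than 0.2 in size. At an unadjusted p under 0.05, 11 of the 39 members passed in wild-type cells, against 2335 of 12267 genes.

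Each amino acid with both enzymes gives a pair. Of 16 such pairs, with Eprs set against both Ears2 and Pars2 and with Farsa set against Fars2, the cytosolic change exceeded the mitochondrial one in 14, with a median difference of 0.34 in log2 footprint change. For threonine, Tars2 had 31.8 and 31.9 CPM in treated and 26.5 and 24.4 CPM in untreated wild-type cells (log2 change 0.32), beside 0.71 for Tars. For alanine, Aars2 had 30.3 and 28.7 CPM in treated and 31.8 and 32.1 CPM in untreated wild-type cells (−0.12), beside 0.60 for Aars. The widest gap was for leucine, with 1.08 for Lars and −0.47 for Lars2. The 2 pairs in the other direction were those for histidine (−0.09 for Hars, −0.02 for Hars2) and serine (0.10 for Sars, 0.22 for Sars2). Hars ends at 36783205 and Hars2 starts at 36783202 on chromosome 18, so these genes overlap, and the sources used here do not give whether counting used strand.

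The other partners of called genes showed small differences in wild-type cells. Yars2, mitochondrial tyrosyl-tRNA synthetase, had 41.1 and 36.3 CPM in treated and 42.2 and 47.7 CPM in untreated wild-type cells (−0.22, adjusted p = 0.422), with both treated libraries below. Iars, the cytosolic partner of Iars2, had 689 and 535 CPM in treated and 519 and 434 CPM in untreated wild-type cells, with both treated libraries above. For the arginine, glutamate, proline and asparagine enzymes of mitochondria the wild-type groups overlapped. Rars2 had 56.9 and 49.7 CPM in treated and 57.9 and 41.6 CPM in untreated cells. Ears2 had 26.7 and 20.4 CPM in treated and 24.6 and 24.8 CPM in untreated cells. Pars2 had 10.5 and 8.50 CPM in treated and 9.19 and 6.98 CPM in untreated cells, and replicate A was the higher in both groups. Nars2 had 10.7 and 8.43 CPM in treated and 10.1 and 8.26 CPM in untreated cells. Each of these 4 had a log2 change between −0.08 (Ears2) and 0.21 (Pars2).

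The summed footprint level of the 21 cytosolic genes was 8725 and 7469 CPM in treated wild-type cells (A and B), against 6883 and 5938 CPM in untreated ones. The sum in treated replicate B was above that in untreated replicate A by a smaller margin than the gap between replicates of either group. Within each letter the treated sum was the higher, and differences between A and B correlated at 0.536 over genes between these 2 groups. The 16 mitochondrial genes summed to 468 and 413 CPM in treated and 429 and 439 CPM in untreated wild-type cells, where the groups overlapped. The ratio of the cytosolic to the mitochondrial sum was 18.62 and 18.1 in treated cells, against 16.06 and 13.52 in untreated ones. In RNA the cytosolic sum was 5842 and 5875 CPM in treated cells and 5826 and 5756 CPM in untreated ones, and the ratio was 6.76 and 6.184 in treated against 6.432 and 6.427 in untreated cells. The footprint ratio was thus above both untreated libraries in both treated ones, while the RNA ratio of the treated libraries lay on either side of the untreated ones. Lars2 alone made up 244 and 321 CPM of the mitochondrial RNA sums, 864 and 950 CPM, in treated cells. In untreated cells Lars2 made up 291 and 277 CPM of 906 and 896 CPM.

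**Figure D2:**
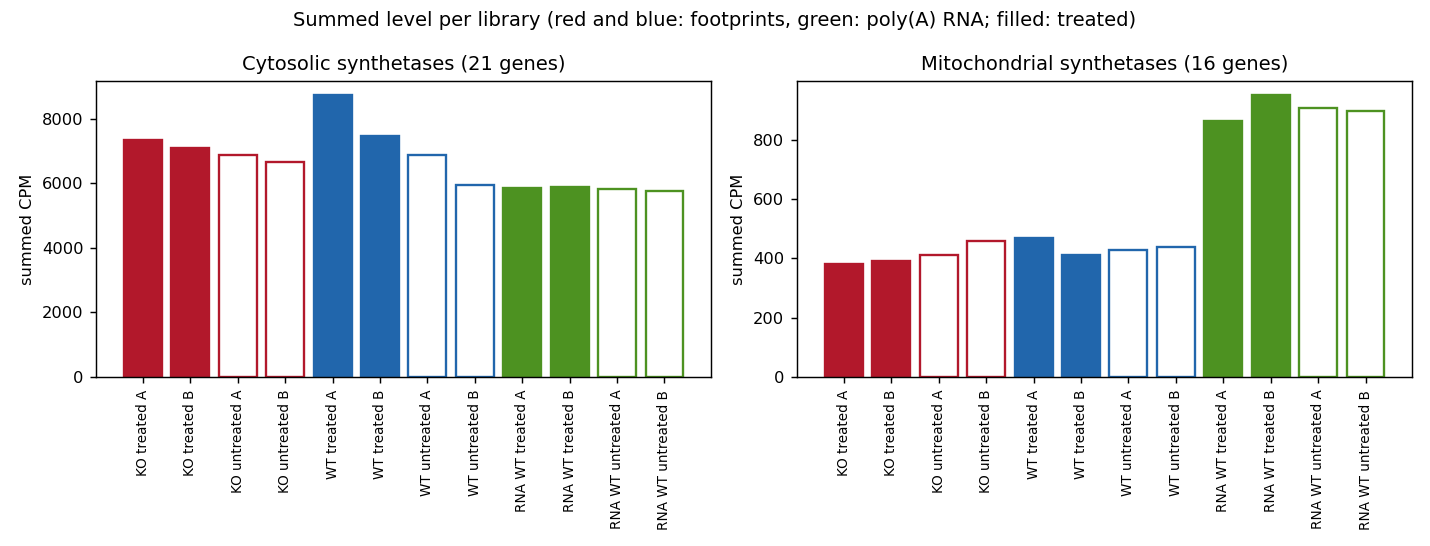
Summed CPM of the 21 cytosolic and of the 16 mitochondrial synthetases in each of the 12 libraries, with knockout and wild-type footprints in red and blue, wild-type poly(A) RNA in green and treated libraries filled. Cytosolic footprints in treated wild-type cells reach 8725 and 7469 CPM, above both untreated libraries. Cytosolic RNA sums are also higher in both treated libraries, by less, at 5842 and 5875 CPM against 5826 and 5756 CPM.

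No member was called in poly(A) RNA after 1 h of treatment. The count was 0 of 39, against 0.163% of 15955 genes called (0.119% higher and 0.0439% lower). Both treated libraries were above both untreated ones for 12 of the 39 and below for 4, against 16.6% and 16.9% of genes. At an unadjusted p under 0.05, 2 members and 819 genes passed, and DESeq2 also called 0 members. Log2 RNA changes ranged from −0.12 (Hars) to 0.19 (Vars), with SEs of 0.0416 to 0.189, and the medians were 0.02 for cytosolic genes, 0.01 for mitochondrial genes and 0.00 over all genes tested. Tars RNA stood at 312 and 314 CPM in treated and 319 and 298 CPM in untreated cells. Lars RNA stood at 245 and 243 CPM in treated and 252 and 249 CPM in untreated cells. The groups overlapped for Tars, and for Lars both treated libraries were slightly below both untreated ones. Aars RNA stood at 959 and 963 CPM in treated and 939.5 and 942 CPM in untreated cells. Eprs RNA stood at 501 and 520.2 CPM in treated and 497 and 497 CPM in untreated cells. Qars RNA stood at 256 and 253 CPM in treated and 248 and 249 CPM in untreated cells. For these 3 genes both treated libraries were above both untreated ones. Rars RNA stood at 220.4 and 227 CPM in treated and 224 and 224 CPM in untreated cells. Yars RNA stood at 55.5 and 51.9 CPM in treated and 52.7 and 54.9 CPM in untreated cells. Nars RNA stood at 367 and 376 CPM in treated and 383 and 372 CPM in untreated cells. The RNA groups overlapped for Rars, Yars and Nars. Iars2 RNA stood at 130.1 and 133 CPM in treated and 125 and 128 CPM in untreated cells, without overlap. Lars2 RNA stood at 244 and 321 CPM in treated and 291 and 277 CPM in untreated cells, with the treated libraries on either side.

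Translational efficiency, the footprint change relative to the RNA change, was tested in 1 model of the 8 wild-type libraries, as an assay by treatment interaction. Tars rose by a log2 change of 0.68 (SE 0.125, adjusted p = 0.0312) and was the only member called, against 1.47% of 12887 genes called either way and 0.784% called higher. This call held in 3 of the 8 fits that left out a library and was lost without treated footprint replicate A and without each of the 4 RNA libraries. Over the 8 fits the log2 change of Tars stayed between 0.61 and 0.76. Such a fit leaves 1 library in a group, so a lost call does not show that the change rested on that library. Lars had the largest estimate, 1.11 (SE 0.268, adjusted p = 0.0774), followed after Tars by Aars (0.57, adjusted p = 0.123), Eprs (0.53, adjusted p = 0.169) and Rars (0.48, adjusted p = 0.103). The efficiency change was above 0 for 20 of 21 cytosolic genes, with a median of 0.26, and for 6 of 16 mitochondrial genes, with a median of −0.03. The median over all genes tested was 0.00.

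**Figure D3:**
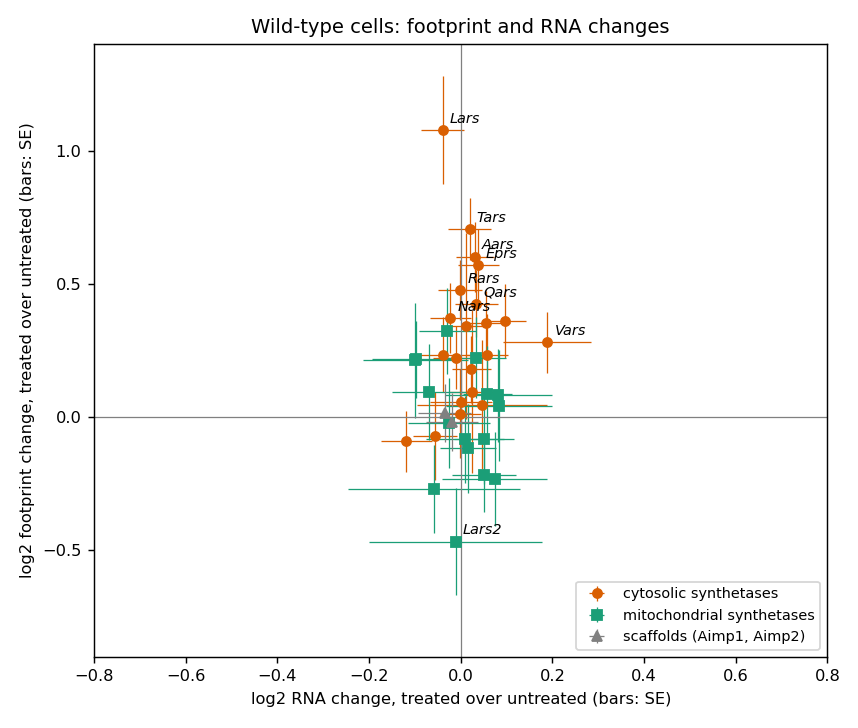
Log2 footprint change against log2 poly(A) RNA change, treated over untreated wild-type cells, for the 39 members (bars are SEs). RNA changes lie between −0.12 and 0.19, while footprint changes extend from −0.47 for Lars2 to 1.08 for Lars.

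The members already differed in footprints relative to RNA before treatment. In untreated wild-type cells the ratio of footprint CPM to RNA CPM had a median of 1.12 over the cytosolic and 0.641 over the mitochondrial genes, beside 0.727 over 12811 genes. Wars had the lowest cytosolic ratio (0.124) and Vars the highest (10.1), and Vars2 had the highest mitochondrial ratio (5.19). Lars2 had the lowest of all members (0.0518), with 14.7 and 14.7 footprint CPM against 291 and 277 RNA CPM. Tars was also low, at 0.310 in treated and 0.193 in untreated cells. These ratios depend on the region counted in each assay, which the sources used here do not give, and are descriptions without a test. Vars and Vars2 lie on either side of the pluripotency marker Pou5f1 on chromosome 17. Pou5f1 had 1356 and 1256 footprint CPM but only 5.72 and 6.88 RNA CPM in untreated wild-type cells. Whether RNA counts were lost along this stretch, which would raise the ratios of Vars and Vars2, was not tested.

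In Gcn2 knockout cells the members moved in both directions after dTAG-13. Of the 21 cytosolic genes, 3 rose (Qars, Rars and Eprs) and 1 fell (Yars), and of the 16 mitochondrial genes 0 rose and 1 fell (Lars2). Over all 12267 genes, 8.88% were called, 3.16% higher and 5.71% lower. The median log2 change was 0.06 over cytosolic and −0.10 over mitochondrial genes, beside 0.04 over all genes tested.

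Yars, cytosolic tyrosyl-tRNA synthetase, lies on chromosome 4 from 129189734 to 129219240. Yars had 138 and 126 footprint CPM in treated knockout cells and 278 and 266 CPM in untreated knockout cells. In wild-type cells it had 263 and 197 CPM with treatment and 245 and 196 CPM without. The treated knockout libraries were thus the lowest of the 8, and the 2 wild-type groups overlapped. Yars was 2.06-fold lower in treated than in untreated knockout cells (log2 change −1.04, SE 0.150, adjusted p = 0.0012), and this call held in all 13 alternatives tried. In wild-type cells its log2 change was 0.06 (SE 0.148, adjusted p = 0.883). The mitochondrial partner Yars2 had 43.2 and 43.0 CPM in treated and 41.6 and 48.7 CPM in untreated knockout cells, which overlapped (log2 change −0.07, adjusted p = 0.819).

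The rises in the knockout were all in complex enzymes. Qars (chromosome 9, 108508005 to 108515941) had 383 and 368 CPM in treated and 249 and 263 CPM in untreated knockout cells and rose by 0.55 (SE 0.126, adjusted p = 0.0166). Rars had 273 and 261 CPM in treated and 189 and 184 CPM in untreated knockout cells and rose by 0.52 (SE 0.113, adjusted p = 0.0128). Eprs had 589.7 and 625 CPM in treated and 444 and 410.1 CPM in untreated knockout cells and rose by 0.51 (SE 0.136, adjusted p = 0.0349). Replicates were close and the groups did not overlap for any of these genes. All 8 complex enzymes had changes above 0 in the knockout, with a median of 0.36. The 3 calls were each lost in all 4 fits that left out a knockout library, and over the 8 fits without a library their log2 changes were between 0.43 and 0.59.

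Lars had 304 and 285 CPM in treated and 217 and 174 CPM in untreated knockout cells (log2 change 0.59, SE 0.200, adjusted p = 0.0951), again without overlap. Tars had 82.1 and 78.4 CPM in treated and 67.3 and 64.9 CPM in untreated knockout cells (0.28, SE 0.115, adjusted p = 0.152). Aars had 1079.8 and 1073 CPM in treated and 1057 and 1028 CPM in untreated knockout cells (0.05, SE 0.131, adjusted p = 0.876). For Aars, unlike in wild-type cells, the 4 knockout libraries lay within a narrow range.

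**Figure D4:**
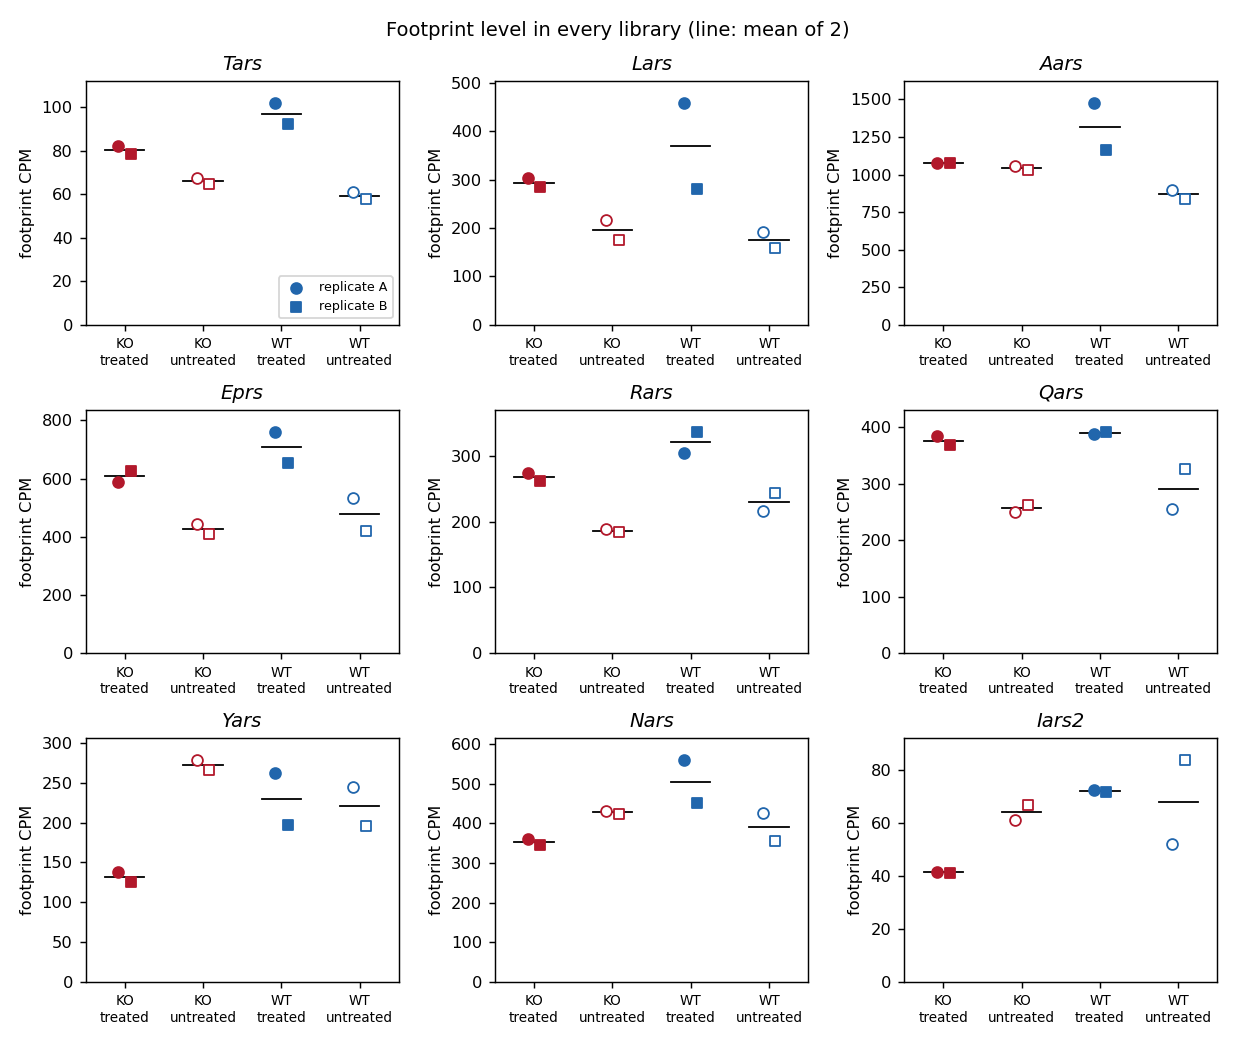
Footprint CPM of 9 members in each of the 8 footprint libraries, with knockout in red, wild type in blue, treated libraries filled and lines at the mean of 2 replicates. Tars and Aars are highest in both treated wild-type libraries, while Yars (138 and 126 CPM) and Iars2 (41.5 and 41.1 CPM) are lowest in both treated knockout libraries.

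Among mitochondrial genes in the knockout, none had both treated libraries above both untreated ones and 7 of 16 had both below, against 32.5% and 27% of all genes tested. Lars2, mitochondrial leucyl-tRNA synthetase (chromosome 9, 123366927 to 123462675), had 8.08 and 9.76 CPM in treated and 14.5 and 16.0 CPM in untreated knockout cells. It fell by 0.77 on the log2 scale (SE 0.199, adjusted p = 0.0304), a call lost in all 4 fits without a knockout library. Iars2, mitochondrial isoleucyl-tRNA synthetase (chromosome 1, 185286642 to 185329419), had 41.5 and 41.1 CPM in treated and 61.1 and 66.5 CPM in untreated knockout cells (log2 change −0.63, SE 0.182, adjusted p = 0.0511). Iars2 was called lower in 9 of the 13 alternatives, among them DESeq2, its size factors in edgeR, the fit without a filter and the knockout libraries fitted alone, and was not called in the 4 fits without a knockout library. In wild-type cells Iars2 had 72.3 and 71.4 CPM with treatment and 51.9 and 83.5 CPM without, which overlapped, and Lars2 had 12.9 and 8.86 CPM with treatment and 14.7 and 14.7 CPM without, with both treated libraries lower. Vars2, mitochondrial valyl-tRNA synthetase, had 18.9 and 19.0 CPM in treated and 24.4 and 28.9 CPM in untreated knockout cells (−0.49, adjusted p = 0.084). The other mitochondrial partners of called genes were not called in the knockout. Aars2 had 25.3 and 28.0 CPM in treated and 28.1 and 39.8 CPM in untreated knockout cells, Nars2 had 6.54 and 8.31 CPM in treated and 9.17 and 8.45 CPM in untreated ones, and for both genes the treated libraries were the lower. Tars2 had 24.2 and 31.9 CPM in treated and 21.9 and 26.2 CPM in untreated knockout cells. Rars2 had 52.8 and 47.3 CPM in treated and 60.3 and 45.2 CPM in untreated knockout cells. These groups overlapped, as did those of Ears2 (25.4 and 23.1 CPM in treated, 24.3 and 28.5 CPM in untreated cells) and Pars2 (10.5 and 8.73 CPM in treated, 7.83 and 9.38 CPM in untreated cells). Iars had 551 and 554 CPM in treated and 491 and 469 CPM in untreated knockout cells (0.20, adjusted p = 0.396), without overlap.

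The summed mitochondrial level was 382 and 393 CPM in treated and 413 and 459 CPM in untreated knockout cells, without overlap. The summed cytosolic level was 7340 and 7093 CPM in treated and 6865 and 6650 CPM in untreated knockout cells, also without overlap. The ratio of the cytosolic to the mitochondrial sum was 19.2 and 18.06 in treated against 16.64 and 14.5 in untreated knockout cells. A higher ratio with treatment was thus seen in both genotypes. Of the 16 pairs, the cytosolic change exceeded the mitochondrial one in 11 in the knockout, with a median difference of 0.207.

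Whether the response differed between genotypes was tested by subtracting the wild-type change from that in the knockout. The count called was 0 of 39 members, against 0.0489% of 12267 genes (0.0163% higher and 0.0326% lower). At an unadjusted p under 0.05, 5 members passed (Yars, Nars, Aars, Tars and Iars2), all with negative differences, against 1229 genes. The difference was −1.10 for Yars (SE 0.211, unadjusted p = 0.000168, adjusted p = 0.0894), −0.65 for Nars, cytosolic asparaginyl-tRNA synthetase (SE 0.186, adjusted p = 0.255), and −0.71 for Iars2 (SE 0.255, adjusted p = 0.362). DESeq2 and the fit with a replicate block each called Yars, the fit without treated wild-type replicate B called Yars, the fit without untreated wild-type replicate B called Iars2, and the fit without a filter on low counts called all 3. The main fit called none of these 3. For all 39 members, a call in 1 genotype and not in the other is not shown to be a difference between genotypes.

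Before treatment, no member was called between knockout and wild-type cells. The count was 0 of 39, against 0.00815% of genes, and 2 members passed an unadjusted p under 0.05, beside 733 genes. DESeq2 also called 0 members. Differences ranged from −0.31 (Rars) to 0.35 (Wars), and both knockout libraries were above both wild-type ones for 5 of the 39 and below for 3, against 15.6% and 16.1% of genes. After treatment, Yars (−0.80, SE 0.150, adjusted p = 0.0154), Nars (−0.52, SE 0.132, adjusted p = 0.0495) and Iars2 (−0.80, SE 0.184, adjusted p = 0.0343) were lower in knockout than in wild-type cells and 0 members were higher, while 3.78% of genes were called either way, 1.86% higher and 1.92% lower. Both treated knockout libraries were above both treated wild-type ones for 4 of the 39 members and below for 15, against 28.2% and 27.2% of genes. Nars had 361 and 346 CPM in treated knockout cells, against 560.0 and 452 CPM in treated wild-type cells, and 432 and 425 CPM in untreated knockout cells. Iars2 had 41.5 and 41.1 CPM in treated knockout cells, against 72.3 and 71.4 CPM in treated wild-type cells. Of the fits that left out a library, 5 of 8 kept the call of Yars, 3 of 8 that of Nars and 2 of 8 that of Iars2. Over these fits the differences were −1.03 to −0.58 for Yars, −0.70 to −0.35 for Nars and −0.85 to −0.79 for Iars2.

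The cytosolic genes were also divided by a list of 12 reported as ATF4 targets in mammalian cells (Aars, Cars, Eprs, Gars, Iars, Lars, Mars1, Nars, Sars, Tars, Wars and Yars) and the other 9. In wild-type cells 4 of the 12 rose, 12 of 12 were above 0 and the median log2 footprint change was 0.36, while 1 of the other 9 rose (Rars) and their median was 0.22, against 2.94% of all genes called higher. In the knockout 1 of the 12 rose (Eprs) and 1 fell (Yars), with a median of 0.05, while 2 of the other 9 rose (Rars and Qars), with a median of 0.11, against 3.16% of all genes called higher and 5.71% lower. The difference between genotypes was below 0 for 12 of 12 with a median of −0.27, and below 0 for 5 of the other 9 with a median of −0.01, beside 0.01 over all genes tested. It was also below 0 for 14 of the 16 mitochondrial genes, with a median of −0.15, so negative differences were not confined to the 12. Before treatment, knockout minus wild type was above 0 for 11 of the 12, with a median of 0.16 (0.00 for the other 9 and 0.03 for mitochondrial genes). After treatment the median was −0.18 for the 12, −0.11 for the other 9 and −0.11 for mitochondrial genes. No test compared these lists. In RNA the medians were 0.02 and 0.00. The summed level of the 12 was 6515 and 5090 CPM in treated and 5038 and 3903 CPM in untreated wild-type cells. Replicate A was the higher in both groups, and treated replicate B was above untreated replicate A by less than either gap between replicates. Within each letter the treated sum was the higher. Sars was an extreme case, with 489.9 and 273 CPM in treated and 462 and 249.6 CPM in untreated wild-type cells.

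**Figure D5:**
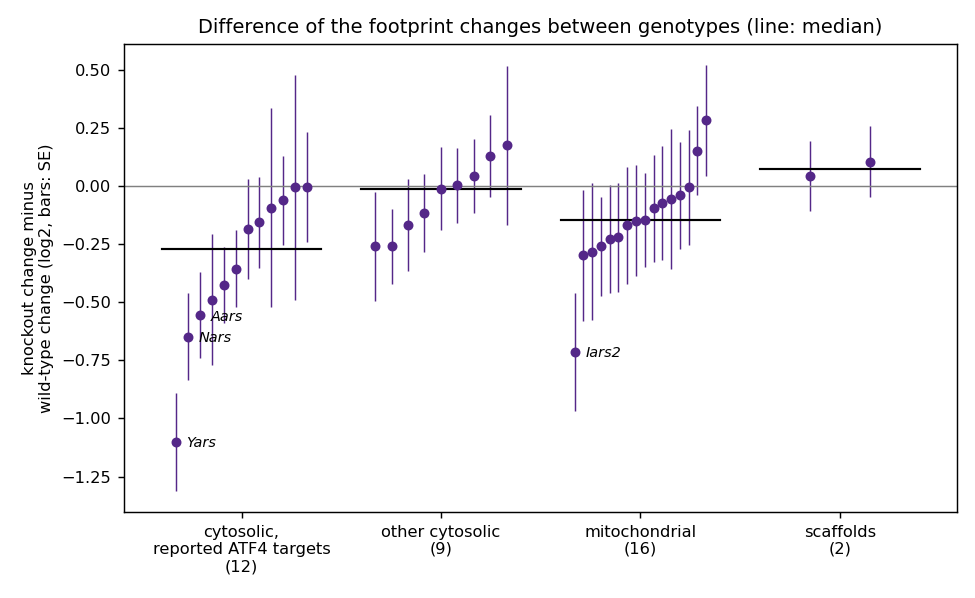
Knockout change minus wild-type change in log2 footprints for each member, by list, with SEs as bars and the list's median as a line. The 12 reported ATF4 targets all lie below 0, with a median of −0.27 and Yars lowest at −1.10, the other 9 cytosolic genes have a median of −0.01, and 14 of the 16 mitochondrial genes lie below 0, with a median of −0.15.

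ATF4 binds DNA with C/EBP proteins at elements with the core TGATGNAA. This motif, or its reverse TTNCATCA, was searched on both strands from 250 bases before to 50 bases after the start that RefSeq's promoter windows use for each gene (GRCm38.p6). For Aars and Yars that start lies inside the gene span given above, downstream of its first base, and the distances below are from the window's own start. Windows were present for 30 of the 39 members, and those of Cars, Hars, Lars, Nars, Rars, Vars, Wars, Hars2 and Pars2 were not. Matches were found in 5 of 14 cytosolic genes, all among the 8 reported ATF4 targets with a window, in 0 of 6 other cytosolic genes, 0 of 14 mitochondrial genes and 0 of 2 scaffold genes. Of all 27025 genes with a window, 1219 (4.51%) held the motif, and of the 32851 windows, 3.97% did. Matched stretches, 1 for each of the 5 genes, are shown with the motif in capitals and 11 bases on each side. Of these genes, Tars and Aars rose in wild-type cells and Yars fell in the knockout, while Gars and Iars were called in neither. All stretches are 5′ to 3′ on the strand of the gene, which is the plus strand except for Tars.
Tars, chr15:11399655-11399684, 15 bases before the window's start: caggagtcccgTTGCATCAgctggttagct
Aars, chr8:111033840-111033869, 9 bases after the window's start: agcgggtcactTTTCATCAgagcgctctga
Gars, chr6:55037960-55037989, 30 bases before the window's start: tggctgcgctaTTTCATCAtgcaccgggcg
Iars, chr13:49682126-49682155, 7 bases after the window's start: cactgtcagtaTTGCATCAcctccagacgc
Yars, chr4:129189895-129189924, 3 bases after the window's start: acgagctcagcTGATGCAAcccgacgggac
The match in Yars is in the orientation of the gene and the others are in the opposite one. The 5 genes with a match had log2 footprint changes in wild-type cells of 0.71 (Tars), 0.60 (Aars), 0.36 (Iars), 0.06 (Yars) and 0.01 (Gars), so a match was present in genes that rose and in genes that were not called. A match describes these letters only. Whether ATF4 binds at a match, or whether a match bears on these changes, was not tested. A window without a match says nothing about the factor.

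Other genes of tRNA charging and supply, 18 in all, included no gene called higher in either genotype. By itself this says little about so short a list, beside the shares of all genes given next. In wild-type cells 0 of 18 were called, against 4.88% of all genes, and the median log2 footprint change was −0.06. In the knockout 0 rose and 2 fell, against 3.16% of all genes called higher and 5.71% lower. Xpot, the exporter that carries tRNA out of the nucleus, fell by 0.87 on the log2 scale (SE 0.113, adjusted p = 0.00066), and Sepsecs, which makes selenocysteinyl-tRNA, fell by 0.66 (SE 0.187, adjusted p = 0.0467). Xpot averaged 68.3 ± 4.86 CPM in treated and 125 ± 7.43 CPM in untreated knockout cells (SD, n = 2 each). In wild-type cells Xpot had a log2 change of −0.41 (adjusted p = 0.0541). It was lower in treated knockout than in treated wild-type cells (−0.81, SE 0.114, adjusted p = 0.00495), and the difference between the changes was −0.46 (adjusted p = 0.332).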

How the data were processed

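Ribosome footprints were measured in 8 libraries and poly(A) RNA in 4. The authors deposited raw counts per gene symbol, 1 table per assay. Per the submitters' processing notes, the tools were HISAT2 2.1.0, cutadapt and CASAVA 1.4, with the mm10 build. The sources used here do not give the counting tool, annotation, counted region or use of strand. The description in each sample's label named its column, with a suffix added for RNA, apart from replicate B of treated knockout cells. There the description names the replicate A column again, and only the column code and the letter in the title tie the sample to its own.

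From these counts, genes passing filterByExpr (minimum count 10) were fitted with edgeR 4.0.16 in R 4.3.3, using TMM scaling and robust quasi-likelihood tests, tested on simulated data. One fit by group took all 8 footprint libraries (12267 genes, 4 residual degrees of freedom), another the 4 RNA libraries (15955 genes, 2 residual degrees of freedom), and the last tested translational efficiency as an assay by treatment interaction over the 8 wild-type libraries (12887 genes), where TMM was applied to each assay separately. SEs were derived from the log2 change and its F statistic, and p-values measure the spread between replicates labelled biological. Alternatives were DESeq2 1.42.0, its size factors in edgeR, no filter, a replicate block, each genotype fitted alone, TMM over both assays, and each library left out.

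The members and lists were chosen with earlier results of these data known, so no set test and no p over the members was made. Footprint values in every library were given for members called in at least 1 comparison and for their partners in the other compartment, with RNA values for the called members, and others mostly by range and count. Promoter windows were RefSeq's on GRCm38.p6, and 1 matched stretch is not reported here.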

Additional observations from a re-analysis of the deposited data

How the results depend on the processing

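Single-gene results of the members kept their side of the threshold in 3141 comparisons with an alternative, lost a call in 56 and gained one in 40, and no called change reversed its sign. Counts of members called moved by more than 1.5 times as follows. In wild-type cells 5 members were called, but 0 with the wild-type libraries fitted alone and 2 to 4 without 1 library. In the knockout 5 were called, but 8 without a filter on low counts, 10 with the knockout libraries fitted alone and 1 to 8 without 1 library, where Yars alone remained called without a knockout library. For the difference between genotypes 0 were called, but 1 with DESeq2, 3 without a filter, 1 (Yars) with the replicate block and 0 to 1 without 1 library. For translational efficiency 1 was called, but 3 with DESeq2, 2 with the replicate block and 0 to 3 without 1 library. Between treated knockout and wild-type cells 3 were called, and 0 to 3 without 1 library. For RNA 0 were called, and 0 to 1 without 1 library (Iars, without untreated replicate B). The causes were not tested, beyond the fewer samples in such fits.

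Without 1 library, the cytosolic median log2 change ranged from 0.24 to 0.41 in wild-type cells, 0.00844 to 0.171 in the knockout, −0.31 to −0.0582 for the difference, 0.0109 to 0.191 before treatment between genotypes, −0.23 to −0.11 after it, 0.00 to 0.03 for RNA and 0.17 to 0.40 for efficiency. The mitochondrial median ranged from −0.11 to 0.12, −0.20 to −0.04, −0.31 to −0.02, −0.08 to 0.12, −0.23 to 0.01, 0.00 to 0.05 and −0.16 to 0.12 in the same order.

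Replicates share only a letter, since no batch is named. Deviations of same-lettered replicates correlated at 0.536 between the wild-type footprint groups, 0.112 between the knockout groups and −0.0368 to 0.131 for other pairs. With the replicate block, 6 members were called in wild-type cells and 7 in the knockout. Depth was lowest in treated wild-type replicate A, and the lowest member count was 44 (Tarsl2 there).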
